A study of Homo sapiens with 12 samples.

Results

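Cholesterol and fatty acid synthesis genes were followed in PANC-1 cells, which derive from a human ductal adenocarcinoma of the pancreas, after transfection of oligonucleotides that add or block the microRNA miR-10b. The set holds 34 genes, listed by name. Of these, 7 are of the mevalonate steps and 11 of the steps from squalene to cholesterol. Regulators and a sterol carrier together make up 6, and 10 are of fatty acid synthesis, elongation, desaturation and use. A gene counted as measured when a probe annotated to it had a detection p under 0.05, that is, signal above the array's background, on at least 3 arrays. By this rule 32 of the 34 genes were measured, among 17369 features of the whole array data. The probe of STARD4, a cytosolic sterol carrier, was detected on 0 arrays, and FDFT1, the squalene synthase gene, had no probe under that symbol. The 4 groups were cells given premir control, premir miR-10b (a precursor that adds miR-10b), antimir control, or antimir-10b (an inhibitor of it), with 3 arrays each. All cells grew in DMEM with 5% fetal bovine serum and were harvested 20 h after transfection. Every group is the same single tumour-derived line. The labels name the arrays of a group biological replicates without saying whether they were separate cultures or days. The p-values below therefore measure only the spread between these arrays.

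Cells make cholesterol from acetyl-CoA through mevalonate, isoprenoid diphosphates, squalene and lanosterol, and they make fatty acids from the same acetyl-CoA. Transcription of most of these enzymes is driven by the sterol regulatory element binding proteins, encoded by SREBF1 and SREBF2, which the escort protein SCAP carries from the endoplasmic reticulum to the Golgi when sterols are low. INSIG1 and INSIG2 hold SCAP in the endoplasmic reticulum when sterols are high, and INSIG1 is itself a target gene of the pathway. Serum lipoproteins bring cholesterol to cultured cells and so lower the demand for synthesis. Tumour cells of the pancreas and other tissues commonly make much of their own lipid.

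The promoter windows of 5 of these genes are shown. Those of INSIG2, which differed between the premir groups, and of INSIG1, SCD and DHCR7, which had some of the lowest values in replicate 3, are shown because their transcripts carry results. FADS2, SREBF1, TM7SF2 and HMGCS1 had lower values in replicate 3 than DHCR7, and their windows are not shown. That of SREBF2, the gene of the factor that drives cholesterol synthesis, is shown for its sequence alone, since it holds both motifs searched. Each window runs from 250 bases before to 50 after a RefSeq start, on GRCh38.p14, and capitals mark matches on either strand to TCANNCCAC, a loose form of the sterol response element in which N is any base, and to CCAAT, the box bound by factor NF-Y, which reads ATTGG on the other strand. The motifs do not overlap in these windows. The windows are INSIG1 at chr7:155297628-155297927 on the plus strand, SCD at chr10:100346983-100347282 on the plus strand, DHCR7 at chr11:71448344-71448643 on the minus strand, SREBF2 at chr22:41832855-41833154 on the plus strand, and INSIG2 at chr2:118088221-118088520 on the plus strand, each printed along the strand of the gene.
INSIG1: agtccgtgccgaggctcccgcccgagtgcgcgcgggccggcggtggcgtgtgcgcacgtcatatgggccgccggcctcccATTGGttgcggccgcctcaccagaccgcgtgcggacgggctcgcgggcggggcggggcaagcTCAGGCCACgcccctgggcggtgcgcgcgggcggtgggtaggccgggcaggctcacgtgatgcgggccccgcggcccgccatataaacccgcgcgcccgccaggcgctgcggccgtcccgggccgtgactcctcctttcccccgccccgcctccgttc
SCD: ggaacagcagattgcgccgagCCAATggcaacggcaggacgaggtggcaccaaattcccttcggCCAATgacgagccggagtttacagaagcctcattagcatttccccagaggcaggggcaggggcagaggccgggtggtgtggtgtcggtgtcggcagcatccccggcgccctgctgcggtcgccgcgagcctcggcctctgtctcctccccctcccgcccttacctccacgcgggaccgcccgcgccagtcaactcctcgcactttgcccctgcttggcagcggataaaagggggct
DHCR7: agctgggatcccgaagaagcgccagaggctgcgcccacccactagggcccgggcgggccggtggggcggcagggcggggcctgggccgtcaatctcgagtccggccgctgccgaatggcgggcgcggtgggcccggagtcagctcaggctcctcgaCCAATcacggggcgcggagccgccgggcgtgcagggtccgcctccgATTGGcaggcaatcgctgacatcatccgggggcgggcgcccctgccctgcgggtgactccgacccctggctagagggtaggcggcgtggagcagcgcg
SREBF2: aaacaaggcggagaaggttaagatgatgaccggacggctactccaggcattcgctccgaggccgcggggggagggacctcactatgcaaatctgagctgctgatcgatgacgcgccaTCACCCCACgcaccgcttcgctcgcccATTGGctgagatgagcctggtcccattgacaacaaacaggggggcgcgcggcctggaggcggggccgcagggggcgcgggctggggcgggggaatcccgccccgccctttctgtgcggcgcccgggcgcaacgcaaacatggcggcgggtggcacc
INSIG2: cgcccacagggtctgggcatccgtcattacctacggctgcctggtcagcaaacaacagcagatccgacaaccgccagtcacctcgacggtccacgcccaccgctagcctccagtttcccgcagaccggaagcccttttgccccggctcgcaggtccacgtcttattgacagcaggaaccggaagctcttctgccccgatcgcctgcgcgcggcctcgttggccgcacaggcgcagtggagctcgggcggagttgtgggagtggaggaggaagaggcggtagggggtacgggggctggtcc

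RefSeq windows were found for 30 of the 34 genes, in 43 windows, and not for ACAT2, FASN, SQLE and FDFT1. A CCAAT box lay in a window of 22 of these 30 genes (73.3%), against 39.7% of 27305 genes with a window and 34.6% of 35116 windows. Among genes tested on the arrays, it lay in 21 of the 29 measured genes of the set with a window, against 43.5% of 9422. The loose sterol element lay in 4 of the 30 (13.3%), namely ACLY, ELOVL5, INSIG1 and SREBF2, against 4.74% of the 27305 genes and 3.82% of all windows. Of the 9422 tested genes 4.38% held it. The INSIG1 and SREBF2 windows above held both motifs, those of SCD and DHCR7 held 2 CCAAT boxes each, and that of INSIG2 held neither motif. Further windows of DHCR7 and INSIG2, not printed, held neither motif, and SREBF1 held neither in any window. All the matches counted are matches of letters and do not show binding.

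Of the 12 arrays, 11 were alike, with 39.2 to 41.3% of probes detected and a correlation of at least 0.980 between any 2 of them. The exception was premir miR-10b replicate 2, where only 29.5% of probes were detected and the median correlation to the other arrays was 0.797. The tests therefore use the other 11 arrays, so that premir miR-10b has 2, and the value of the array left out is still given for each gene described in full. With so few arrays a group, precision is limited by their number. Of the markers looked at, all 6 of ductal carcinoma epithelium (KRT7, KRT8, KRT18, KRT19, EPCAM, CDH1) were detected on at least 3 arrays. The same was true of 1 of 6 acinar, 1 of 4 islet, 2 of 6 fibroblast, 2 of 5 leukocyte, 0 of 4 endothelial, 1 of 5 hepatocyte and 1 of 4 adipocyte markers, with PTPRC, CD3E and PECAM1 detected on 0 arrays.

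Values are normalized log2 signals of the gene's brightest probe, and levels of different genes are not compared, since probes differ in brightness. On the 11 arrays 31 of the 32 genes were detected on every array, while SREBF2 was detected on 7 of 11 and lay near the background. Across the 11 arrays the mean signal of the 32 genes ran from 8.80 to 9.20. The picture of all genes on all arrays shows that the array left out differs from the rest in most of them, in both directions.

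**Figure D1:**
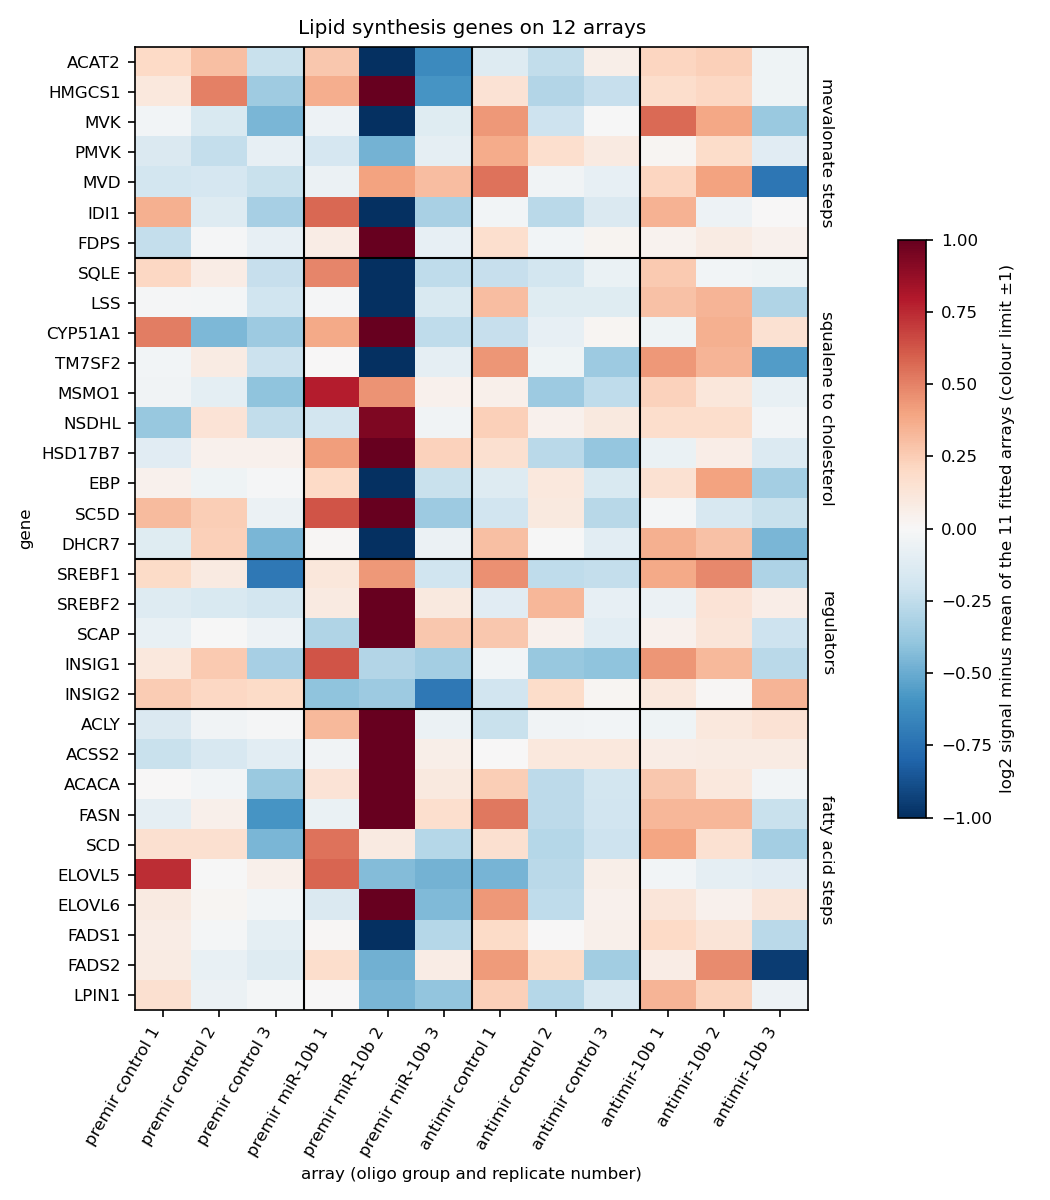
Each row is a gene and each column an array, ordered by oligonucleotide group and replicate number; colour is the log2 signal minus the gene's mean over the 11 fitted arrays, with the scale limited at 1 in either direction. INSIG2 is lowest in the premir miR-10b columns, the column of premir miR-10b replicate 2 is saturated for many genes, and the columns of replicate 3 are bluer than those of replicate 1 for most genes.

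Adding miR-10b was tested by setting premir miR-10b against its own control oligonucleotide. INSIG2, which retains SCAP in the endoplasmic reticulum, fell by 0.78 on the log2 scale, a 1.71-fold decrease, and was the 1 gene of the 32 that passed the test. INSIG2 read 7.51, 7.47 and 7.45 on premir control replicates 1 to 3, and 6.86 and 6.54 on premir miR-10b replicates 1 and 3, with 6.90 on the array left out. It read 7.06, 7.44 and 7.28 with antimir control and 7.37, 7.27 and 7.60 with antimir-10b. All premir miR-10b arrays, the one left out included, lay below every array of the other 3 groups. The group means were 7.48 ± 0.03 (SD, n = 3) with premir control and 6.70 ± 0.22 (SD, n = 2) with premir miR-10b.

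In limma's test over all 17369 features the INSIG2 change was -0.78 ± 0.15 (SE), with a 95% interval of -1.10 to -0.45 and an adjusted p of 0.0289. The 1 of 32 called lower stands beside 0.484% of all features called lower, and the 0 of 32 called higher beside 0.23%. The call did not hold in every setting: the change was -0.71 with an adjusted p of 0.220 when all 12 arrays were fitted, -0.62 with 0.292 without premir miR-10b replicate 3, and -0.76, -0.78 and -0.79 with 0.0982, 0.0966 and 0.0967 without premir control replicates 1, 2 and 3. With the premir arrays fitted alone the adjusted p was 0.107, at the same difference. The adjusted p was also 0.0532 without antimir control replicate 3 and 0.0555 without antimir-10b replicate 1, at an unchanged difference, and it ended above 0.05 with the values scaled by the authors (-0.53, 0.394) and with median centring (-0.67, 0.279). The direction was the same in all of them. RNA of whole cultures was measured, so fewer cells with INSIG2 and less INSIG2 RNA in each cell cannot be told apart.

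**Figure D2:**
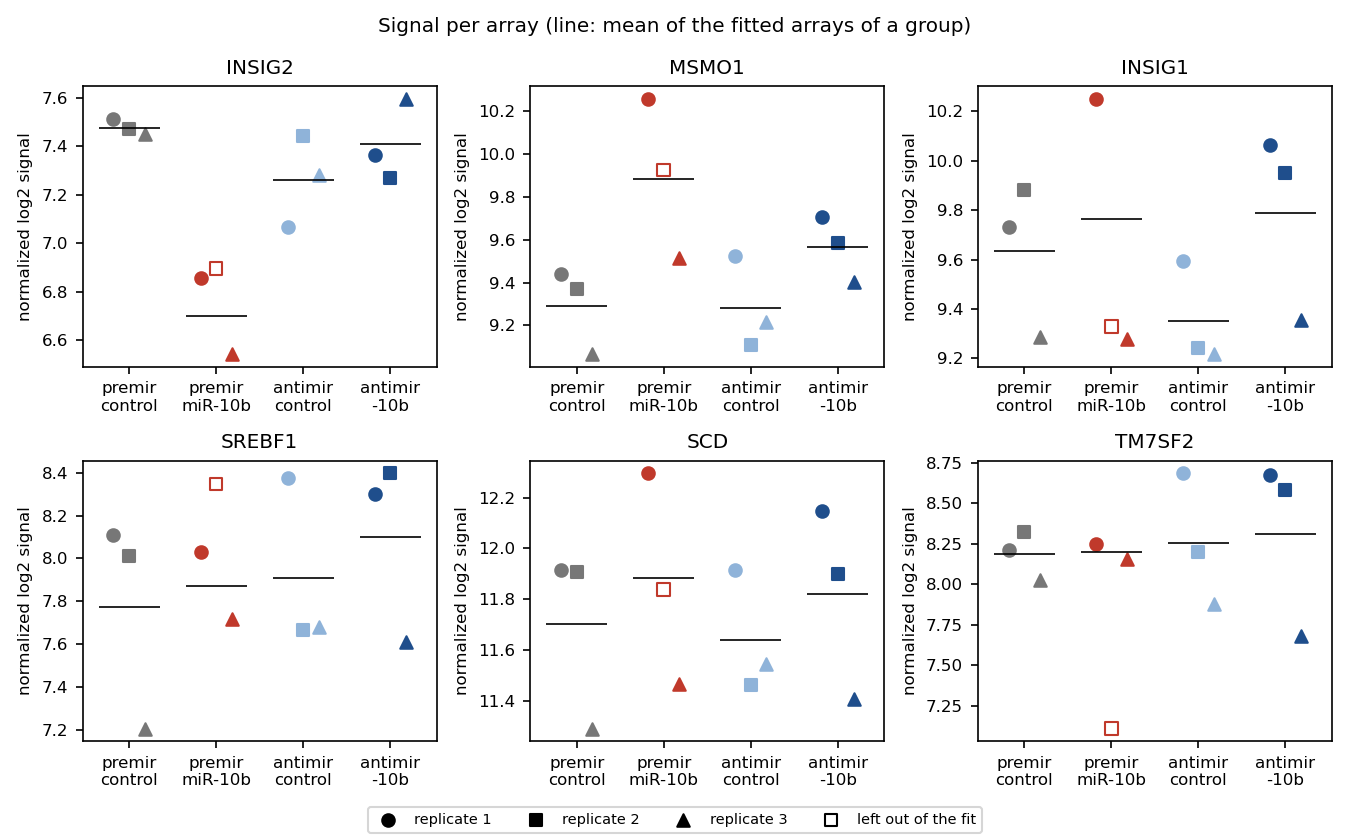
Normalized log2 signal (y axis) of 6 genes on each array of the 4 groups (x axis), with the marker shape giving the replicate number, the open square the array left out of the tests, and the line the mean of the fitted arrays. INSIG2 lies between 6.54 and 6.90 with premir miR-10b and between 7.06 and 7.60 elsewhere, while for SCD and TM7SF2 the triangles of replicate 3 lie below the circles of replicate 1 in each group.

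The enzymes did not pass the test in this comparison. MSMO1, the monooxygenase that removes methyl groups from sterols, had the largest positive difference of the 32 genes, 0.59 ± 0.21 (SE), with an adjusted p of 0.385 in limma. It read 9.44, 9.37 and 9.07 with premir control and 10.26 and 9.51 with premir miR-10b, with 9.92 on the array left out. It read 9.53, 9.11 and 9.22 with antimir control and 9.70, 9.59 and 9.40 with antimir-10b. On this brightest probe all premir miR-10b arrays thus lay above the premir controls, but replicate 3 overlapped with both antimir groups. The other 2 probes of MSMO1 gave differences of 0.49 and 0.12. On the array left out the first of them read 4.91, below its premir controls at 6.90 to 7.33. The second read 6.42 there, among its premir controls at 6.28 to 6.75.

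HSD17B7, a sterol ketoreductase of the same demethylation steps, had a difference of 0.34 ± 0.16 (SE) and an adjusted p of 0.646. It read 9.22, 9.38 and 9.39 with premir control, 9.76 and 9.57 with premir miR-10b (10.75 on the array left out), 9.50, 9.07 and 8.96 with antimir control and 9.28, 9.41 and 9.20 with antimir-10b. The fitted premir miR-10b arrays were the highest of the 11. HSD17B7 and FDPS have near-identical pseudogene copies in the genome, which their probes may not separate.

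ELOVL6, the elongase of saturated fatty acids, differed by -0.32 ± 0.17 (SE) with an adjusted p of 0.738. It read 7.98, 7.91 and 7.86 with premir control and 7.74 and 7.45 with premir miR-10b, but 9.60 on the array left out, with which the difference turned to 0.35. The dimmer probe of ELOVL6 went the other way on that array, at 5.01 against 6.68 to 7.21 on the 11 arrays, and gave -0.25 without it. With antimir control the brightest probe read 8.32, 7.63 and 7.93, and with antimir-10b 8.01, 7.93 and 8.01. The antimir control arrays alone spanned a wider range than the fitted premir arrays of either kind did within their groups.

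Taken by role, 5 of 7 mevalonate genes, 7 of 10 genes from squalene to cholesterol, 4 of 5 regulators and 6 of 10 fatty acid genes had a difference above 0 in the premir comparison. The median over the 32 genes was 0.10, against 0.00 for all features. For 6 genes (MSMO1, HSD17B7, SREBF2, ACSS2, ACACA and MVD) all fitted premir miR-10b arrays lay above all premir controls, a pattern that 9.81% of all features showed. For INSIG2 and ELOVL6 they all lay below, as for 9.98% of all features. With 12 arrays 17 of the 32 differences were above 0 in place of 22.

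**Figure D3:**
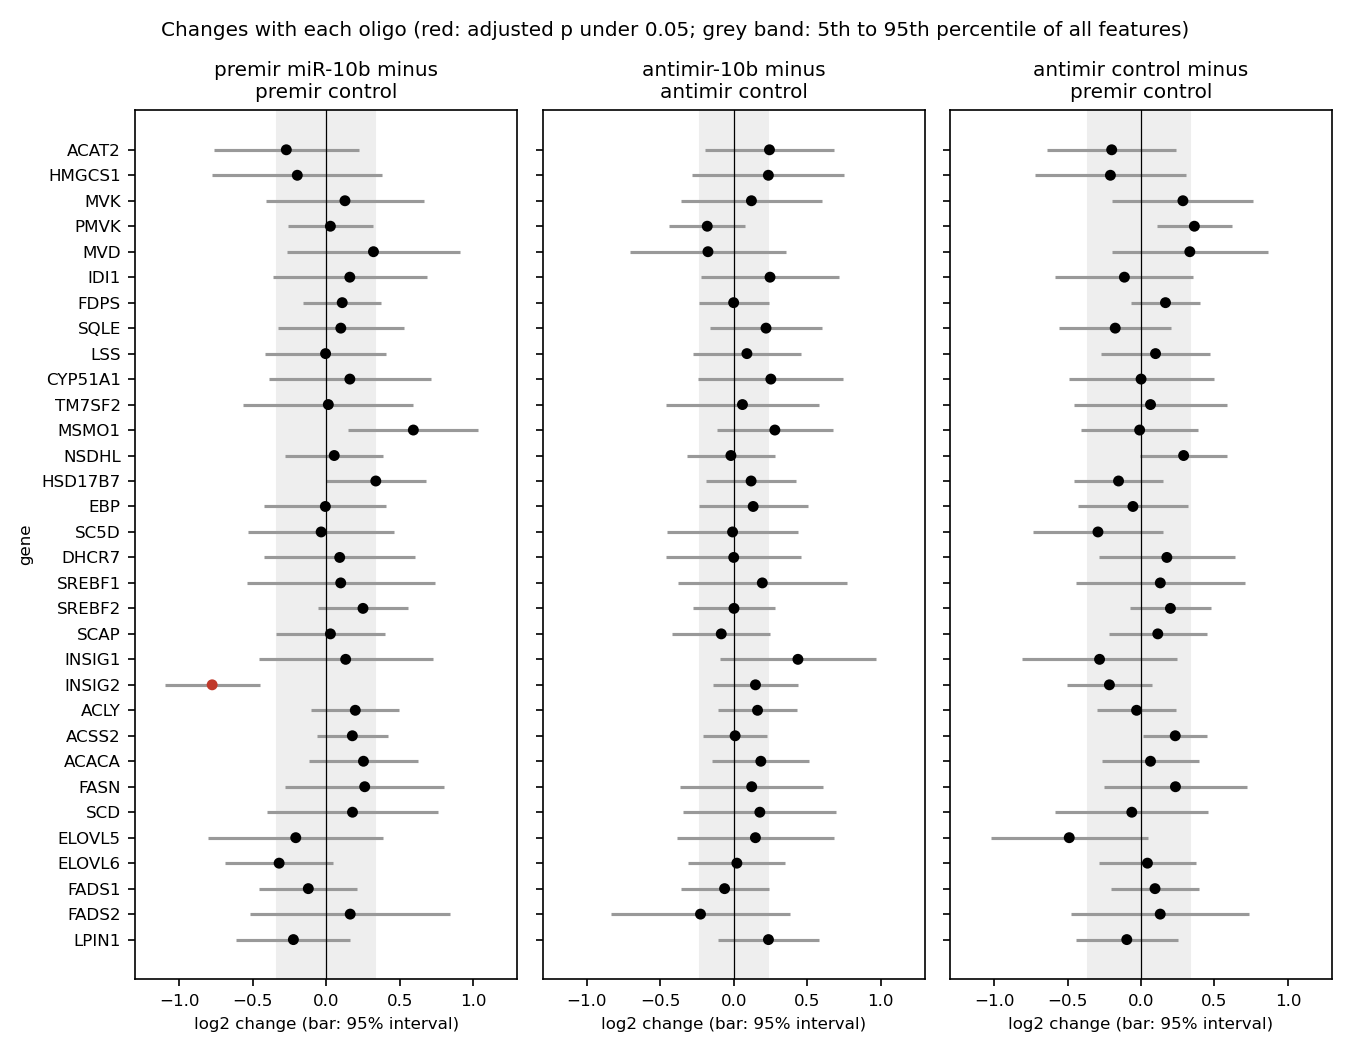
Log2 difference of each of the 32 genes (point) with its 95% interval (bar) for premir miR-10b minus premir control, antimir-10b minus antimir control, and antimir control minus premir control; the grey band spans the 5th to 95th percentile of all features. INSIG2 in the premir comparison, at -0.78, is the red point that passed the test.

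Inhibiting miR-10b was tested by setting antimir-10b against its own control, and none of the 32 genes passed the test. No feature of the 17369 did (0%) in limma's fit. At an unadjusted p under 0.05 the counts were 0 of the 32 genes and 2.1% of all features. INSIG1, the feedback regulator that is also a pathway target, had the largest difference, 0.44 ± 0.25 (SE), with an unadjusted p of 0.0986 and an adjusted p of 0.999. INSIG1 read 9.59, 9.24 and 9.22 with antimir control and 10.06, 9.95 and 9.36 with antimir-10b. It read 9.73, 9.88 and 9.29 with premir control and 10.25 and 9.28 with premir miR-10b, with 9.33 on the array left out. The antimir groups overlapped, because antimir-10b replicate 3 was below antimir control replicate 1.

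MSMO1, the sterol methyl oxidase, differed by 0.28 ± 0.18 (SE) with an adjusted p of 0.999 on its brightest probe, and its 3 probes disagreed. A dimmer probe of MSMO1 read 7.34, 6.36 and 6.86 with antimir control and 7.84, 8.06 and 7.40 with antimir-10b, groups that did not overlap, and differed by 0.91 ± 0.26 (SE) with an unadjusted p of 0.0036 and an adjusted p of 0.999 over all probes. The remaining probe gave -0.17. The count of 0 of 32 genes at an unadjusted p under 0.05 uses the brightest probe of each gene, and with every probe taken alone it was 1 of 46, this one.

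The other genes named for this comparison had smaller differences. IDI1, the isomerase that makes the allylic isoprenoid unit, differed by 0.25 ± 0.22 (SE). It read 7.71, 7.47 and 7.59 with antimir control, 8.09, 7.68 and 7.74 with antimir-10b, 8.09, 7.61 and 7.41 with premir control, and 8.31 and 7.41 with premir miR-10b (5.19 on the array left out). Replicate 1 was the highest array in every group, and the groups overlapped throughout.

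CYP51A1, the cytochrome P450 that demethylates lanosterol, differed by 0.25 ± 0.23 (SE) with antimir-10b. It read 6.35, 6.50 and 6.60 with antimir control, 6.54, 6.94 and 6.73 with antimir-10b, 7.09, 6.14 and 6.22 with premir control, and 6.96 and 6.32 with premir miR-10b (8.84 on the array left out). Its widest spread, from 6.14 to 7.09, lay within the premir control group.

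LPIN1, the phosphatidate phosphatase lipin, differed by 0.24 ± 0.16 (SE) with antimir-10b. It read 9.90, 9.37 and 9.50 with antimir control, 9.997, 9.88 and 9.61 with antimir-10b, 9.82, 9.60 and 9.64 with premir control, and 9.66 and 9.26 with premir miR-10b (9.20 on the array left out). PMVK, the kinase of phosphomevalonate, was among the few genes with a negative value, -0.18 ± 0.12 (SE).

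Of the 32 differences in the antimir comparison 24 were above 0, as 50.3% of all features were, and the median was 0.12 against 0.00 for all features. The median depended on single arrays. It was 0.038 with 20 genes above 0 without antimir-10b replicate 2, 0.043 without antimir-10b replicate 1, 0.054 without antimir control replicate 3 and 0.080 without antimir control replicate 2 (21 genes in each), 0.19 with 26 without antimir control replicate 1, and 0.26 with 30 without antimir-10b replicate 3. With the values scaled by the authors 28 were above 0 and with median centring 29. Those scalings also moved the median of all features to 0.050 and 0.071. The median of the 32 genes minus that of all features was 0.162 and 0.157 there, against 0.120 in the main fit. By role the counts above 0 were 4 of 7, 8 of 10, 4 of 5 and 8 of 10, in the order mevalonate, squalene to cholesterol, regulators and fatty acid genes. SQLE, the squalene epoxidase, was the 1 gene whose antimir-10b arrays all lay above the antimir controls, as 4.46% of all features did.

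The premir effect minus the antimir effect was tested directly for each gene. INSIG2 differed by -0.93 ± 0.20 (SE) with an adjusted p of 0.0900 in limma, so it did not pass, and 0.363% of all features did. Without premir miR-10b replicate 1 the value was -1.08 and the adjusted p 0.0336, while the other settings gave adjusted p-values up to 0.734. ACAT2, the thiolase that starts the mevalonate steps, had -0.52 ± 0.31 (SE). ACAT2 read 11.61, 11.72 and 11.19 with premir control, 11.69 and 10.78 with premir miR-10b (8.65 on the array left out), 11.28, 11.17 and 11.47 with antimir control and 11.63, 11.65 and 11.37 with antimir-10b. The difference between the 2 premir miR-10b arrays was larger than any difference between the group means.

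MVD, the decarboxylase of mevalonate diphosphate, had a difference between effects of 0.50 ± 0.37 (SE). MVD read 7.18, 7.19 and 7.13 with premir control, 7.30 and 7.67 with premir miR-10b (7.76 on the array left out), 7.90, 7.32 and 7.28 with antimir control and 7.58, 7.76 and 6.64 with antimir-10b. Antimir-10b replicate 3 was the lowest of all the arrays. LPIN1 had -0.46 ± 0.24 (SE) and ELOVL6 -0.34 ± 0.23 (SE), and neither passed.

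The control oligonucleotides were compared with each other to show how far 2 groups without added or blocked miR-10b differ, using the same control arrays as the comparisons above. None of the 32 genes passed, while 0.207% of all features did. PMVK was 0.36 ± 0.12 (SE) higher with antimir control, with an adjusted p of 0.359. PMVK read 8.72, 8.63 and 8.78 with premir control, 9.23, 9.04 and 8.95 with antimir control, 8.70 and 8.78 with premir miR-10b (8.39 on the array left out) and 8.89, 9.05 and 8.75 with antimir-10b. Its antimir controls all lay above the premir controls, as did those of ACSS2, SREBF2 and MVD and of 10.5% of all features.

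ACSS2, the enzyme that makes acetyl-CoA from acetate, was 0.23 ± 0.10 (SE) higher with antimir control, with an adjusted p of 0.468. It read 9.24, 9.31 and 9.36 with premir control, 9.47, 9.57 and 9.57 with antimir control, 9.43 and 9.53 with premir miR-10b (10.92 on the array left out) and 9.54, 9.55 and 9.55 with antimir-10b. The 3 premir controls were the lowest of its arrays. INSIG2 had -0.22 ± 0.13 (SE) here, and its antimir controls all lay below the premir controls, as 9.3% of all features did.

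NSDHL, a sterol dehydrogenase of the demethylation steps, differed by 0.29 ± 0.14 (SE) between the controls. It read 10.03, 10.54 and 10.16 with premir control, 10.64, 10.45 and 10.50 with antimir control, 10.22 and 10.37 with premir miR-10b (11.34 on the array left out) and 10.58, 10.58 and 10.38 with antimir-10b. Premir control replicate 2 lay within the range of the antimir groups.

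SC5D, the sterol desaturase, had -0.29 ± 0.21 (SE) between the controls, in the other direction. It read 8.95, 8.88 and 8.57 with premir control, 8.44, 8.73 and 8.35 with antimir control, 9.26 and 8.27 with premir miR-10b (10.47 on the array left out) and 8.61, 8.47 and 8.41 with antimir-10b. Its range was widest between the 2 premir miR-10b arrays.

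ELOVL5, the elongase of polyunsaturated fatty acids, had -0.49 ± 0.25 (SE) between the controls. It read 10.62, 9.87 and 9.93 with premir control, 9.41, 9.60 and 9.94 with antimir control, 10.46 and 9.40 with premir miR-10b (9.44 on the array left out) and 9.85, 9.78 and 9.76 with antimir-10b. The difference rested in good part on premir control replicate 1, without which it was -0.25.

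The replicate numbers of the titles recur in all 4 groups, and the genes were also compared by number, with the oligonucleotide group as a term in the model. What a number stands for is not labelled. None of the 32 genes, and none of the 17369 features (0%), passed the test for replicate 3 against replicates 1 and 2 in limma. At an unadjusted p under 0.05, however, 14 of the 32 genes were lower in replicate 3, against 2.46% of all features. No gene of the 32 was higher at that level, against 2.68% of all features. Of the 32 differences 30 were below 0, with a median of -0.26 against 0.01 for all features, and 17 genes lay below the 5th percentile of all features, -0.21.

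The 14 genes came from every role. Lower at an unadjusted p under 0.05 were 3 of 7 mevalonate genes (HMGCS1, IDI1, MVK), 6 of 10 genes from squalene to cholesterol (TM7SF2, DHCR7, MSMO1, SC5D, EBP, LSS), 2 of 5 regulators (INSIG1, SREBF1) and 3 of 10 fatty acid genes (SCD, FADS2, FADS1). All 7 mevalonate genes and all 10 genes from squalene to cholesterol had a value below 0. The 2 values above 0 were those of ACSS2, 0.05, and INSIG2, 0.01.

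**Figure D4:**
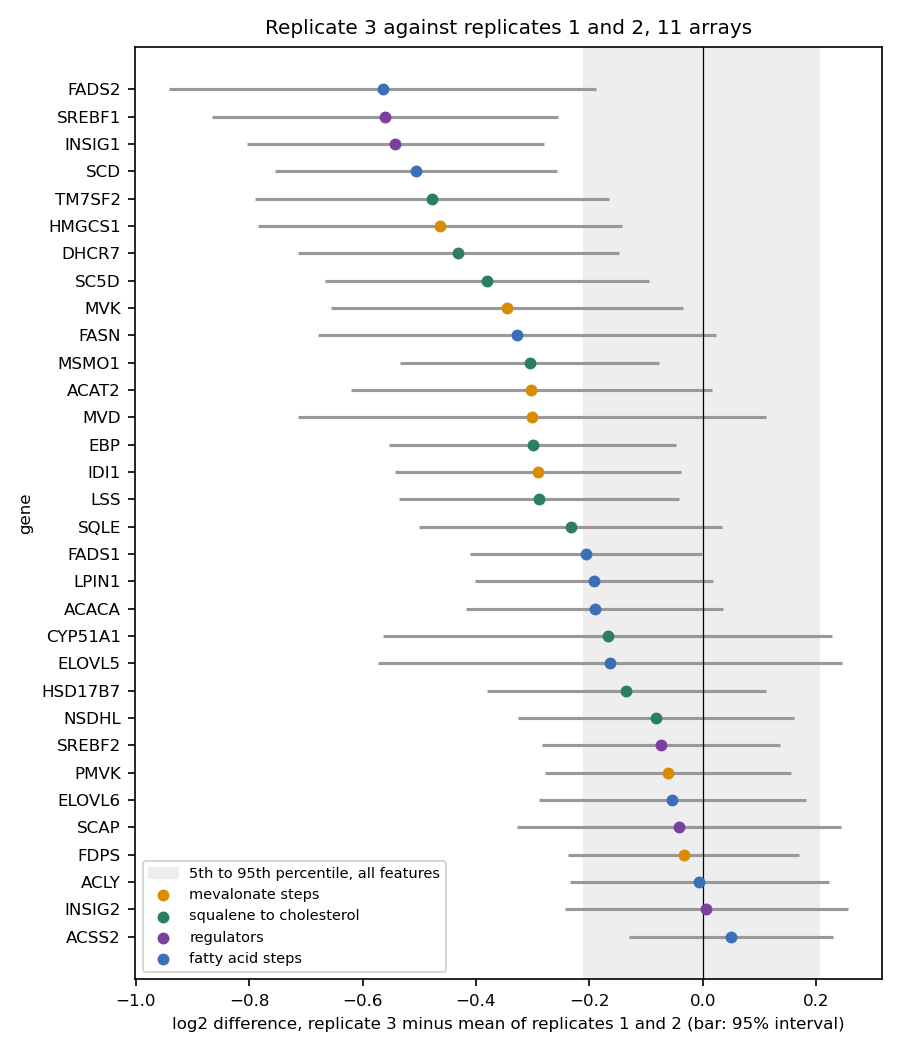
Log2 difference of replicate 3 from the mean of replicates 1 and 2 (x axis), with its 95% interval, for the 32 genes in order of size, coloured by role; the grey band spans the 5th to 95th percentile of all features. FADS2, SREBF1, INSIG1 and SCD have the lowest values, from -0.56 to -0.51, and 17 genes lie below the band.

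SREBF1, the gene of the factor that drives fatty acid synthesis, had a replicate 3 difference of -0.56 ± 0.14 (SE) with an adjusted p of 0.580. SREBF1 read 8.11, 8.01 and 7.20 with premir control, 8.03 and 7.72 with premir miR-10b (8.35 on the array left out), 8.38, 7.66 and 7.68 with antimir control and 8.30, 8.40 and 7.61 with antimir-10b. Replicate 3 was the lowest array of its group except with antimir control, where replicate 2 was slightly lower. Its other probe gave -0.77.

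INSIG1 had -0.54 ± 0.12 (SE) with an unadjusted p of 0.000784 and an adjusted p of 0.544, which with that of SCD was the smallest of the 32. Its readings, given above, had replicate 3 as the lowest array in every group, the array left out included. The other probe of INSIG1 gave -0.37, without the same order. With antimir control its replicate 2 was lower than its replicate 3, at 5.78 against 5.92. On the array left out that probe read 5.03, below the 6.08 of premir miR-10b replicate 3. Second probes did not all follow: of the other probes of MSMO1 (-0.31 on the brightest) 1 gave -0.35 and 1 gave 0.07, and the other 2 of LSS, detected on 4 of 12 arrays, gave 0.03 and 0.04. Of all 46 probes of the set 39 were below 0.

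SCD, the desaturase that makes oleate from stearate, had -0.51 ± 0.11 (SE) with an adjusted p of 0.544. SCD read 11.91, 11.91 and 11.29 with premir control, 12.29 and 11.47 with premir miR-10b (11.84 on the array left out), 11.91, 11.46 and 11.55 with antimir control and 12.15, 11.90 and 11.41 with antimir-10b. Replicate 3 was below replicate 1 in each group, and in antimir control replicate 2 was lower still.

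TM7SF2, a sterol reductase, had -0.48 ± 0.14 (SE) with an adjusted p of 0.693. TM7SF2 read 8.21, 8.32 and 8.03 with premir control, 8.25 and 8.15 with premir miR-10b (7.11 on the array left out), 8.68, 8.20 and 7.88 with antimir control and 8.67, 8.58 and 7.68 with antimir-10b. The gap was largest with antimir-10b.

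FADS2, the desaturase that starts the synthesis of long polyunsaturated fatty acids, had the largest difference, -0.56 ± 0.17 (SE), with an adjusted p of 0.708. FADS2 read 6.71, 6.55 and 6.49 with premir control, 6.79 and 6.69 with premir miR-10b (6.14 on the array left out), 7.05, 6.81 and 6.28 with antimir control and 6.70, 7.09 and 5.67 with antimir-10b. Its value rested largely on antimir-10b replicate 3, without which it was -0.32, and with the premir groups alone it was -0.09.

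Other genes of the set showed the same direction at different sizes. HMGCS1, the synthase of HMG-CoA, had -0.46 and DHCR7, the reductase of the last step to cholesterol, had -0.43, with -0.42 from its other probe. HMGCS1 ran from 7.69 on premir miR-10b replicate 3 to 8.78 on premir control replicate 2, and DHCR7 from 10.12 on premir control replicate 3 to 10.93 on antimir-10b replicate 1. The kinase gene MVK had -0.35, the lanosterol synthase gene LSS -0.29 and the sterol isomerase gene EBP -0.30. For MVK, LSS and EBP the lowest fitted arrays, at 6.25, 9.27 and 9.94, were replicate 3 of a group, and the highest, at 7.27, 9.91 and 10.68, were replicate 1 or 2 of antimir-10b.

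FASN, the fatty acid synthase, had -0.33 and ACACA, which makes its substrate malonyl-CoA, had -0.19, both short of an unadjusted p under 0.05. FASN ran from 11.71 on premir control replicate 3 to 12.83 on antimir control replicate 1. SQLE had -0.23, with signals from 10.02 to 10.76, and FADS1, a desaturase of polyunsaturated fatty acids, had -0.21, with signals from 9.41 to 9.89. FDPS, the farnesyl diphosphate synthase, SCAP, the carrier of the factors, and ACLY, which makes cytosolic acetyl-CoA from citrate, had values of -0.03, -0.04 and -0.01, and SREBF2 had -0.07. These lie between the 5th and 95th percentiles of all features. Over the 11 arrays FDPS ran from 7.93 to 8.33, SCAP from 9.29 to 9.87 and SREBF2 from 5.25 to 5.76.

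The same direction appeared within each group. Replicate 3 was below the mean of the other fitted arrays for 27 of the 32 genes with premir control, 25 with premir miR-10b (against replicate 1 alone), 24 with antimir control and 27 with antimir-10b. The medians of these differences were -0.21, -0.29, -0.14 and -0.24. Of all features, 50.1, 48.0, 50.6 and 45.0% were lower in replicate 3 of the same groups.

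The order of the arrays within each group was counted as well. For 7 genes (DHCR7, FADS2, INSIG1, LSS, MVD, SC5D and TM7SF2) replicate 3 was the lowest array in all 3 groups with 3 fitted arrays, against 5.53% of all features. For all of them but MVD it was also below replicate 1 with premir miR-10b, against 1.67% of all features. For 1 gene, ACLY, it was the highest in all 3 on the brightest probe, against 6.25%. On the other ACLY probe replicate 3 was the highest with premir control and antimir control. With antimir-10b that probe read 9.45, 9.23 and 8.89, with replicate 3 the lowest. The count of 7 was 2 with the values scaled by the authors and 1 with median centring, although 30 and 31 of the 32 differences were below 0 in those settings.

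**Figure D5:**
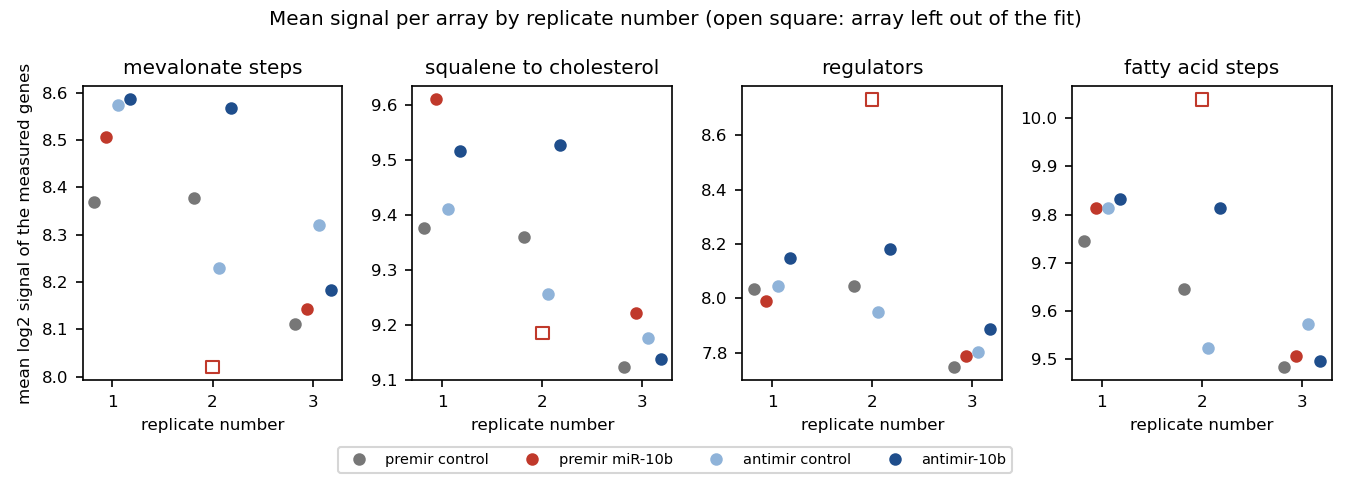
Mean log2 signal over the measured genes of each role (y axis) on each array, by replicate number (x axis) and oligonucleotide group (colour), with the array left out as an open square. For the genes from squalene to cholesterol and for the regulators the 4 arrays of replicate 3 lie below the other 7 fitted arrays, while for the mevalonate and fatty acid genes antimir control replicate 2 lies among them.

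The mean over the 32 genes was 8.80 to 8.90 on the replicate 3 arrays, 9.06 to 9.20 on those of replicate 1 and 8.91 to 9.20 on those of replicate 2. Antimir control replicate 2, at 8.91, was the array of the other numbers nearest to replicate 3. The share of probes detected was 39.2 to 40.8% in replicate 3, 39.5 to 41.3% in replicate 1 and 39.8 to 41.1% in replicate 2, ranges that overlap. The 95th percentile of the raw signal was 1256 to 1485 in replicate 3, within the range of replicate 1. The part of array quality in the replicate 3 difference was not tested beyond these ranges.

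The count depended on the arrays used. With all 12 arrays 4 of the 32 genes were lower at an unadjusted p under 0.05, against 0.645% of all features, and without antimir-10b replicate 3 it was 7. With the antimir groups alone and the premir groups alone the median was -0.20 and -0.19, and 11 genes were lower at that level in each. The share of all features at that level was not taken in these smaller fits, so the counts of 7 and 11 cannot be set beside it. At an adjusted p under 0.05 in limma, 2 of all features passed with the antimir groups alone and 19 with the premir groups alone, against 0 in the main fit. The median stayed between -0.32 and -0.18 in all 22 settings tried.

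Replicate 2 was also compared with replicate 1. None of the 32 genes and none of all features passed (0%), and 2 of the 32, IDI1 at -0.44 ± 0.14 (SE) and LPIN1 at -0.30 ± 0.12 (SE), were lower at an unadjusted p under 0.05, against 2.03% of all features. The adjusted p of both was 0.995 in limma. The median was -0.09, with 22 of 32 values below 0. It turned to 0.043, with 14 below 0, without antimir control replicate 2, was -0.049 with 18 without antimir control replicate 1, and was -0.20 with 24 without antimir-10b replicate 2. Under median centring and with the authors' scaled values 31 of 32 were below 0. The median of all features then lay at -0.091 and -0.066. The median of the 32 genes minus that of all features was -0.156 and -0.157 there, against -0.091 in the main fit. MSMO1 had -0.25, ELOVL5 -0.33 and ELOVL6 -0.29. The last turned to 0.26 with 12 arrays, and that of ELOVL5 to 0.07 with the antimir groups alone.

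Genes around the pathway were described from 4 lists to show how far the pattern reaches. None of them held a gene that passed the test in any of the 6 comparisons. In replicate 3, 0 of 15 measured genes of sterol uptake, efflux and processing were below or above at an unadjusted p under 0.05, with a median of -0.03. Of 8 genes of the isoprenoid branch 1, FNTA, a subunit of protein farnesyltransferase, was higher, at 0.32 ± 0.10 (SE), and the median was 0.00. Of all features 2.68% were higher and 2.46% lower at that level. With all 12 arrays none of the 4 lists held a gene at an unadjusted p under 0.05 in this comparison.

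Of 17 genes of fatty acid activation and lipid assembly 2 were lower in replicate 3 at that level. They were SLC25A1, the mitochondrial citrate carrier that supplies acetyl-CoA for lipid synthesis, at -0.43 ± 0.17 (SE), and LPCAT3, a phospholipid acyltransferase, at -0.25 ± 0.11 (SE). The median of the list was -0.08, and -0.15 with 12 arrays. Of 12 fatty acid oxidation genes 3 were higher at that level and 0 lower. These were ETFB at 0.36 and ETFA at 0.28, the subunits of the electron transfer flavoprotein, and PPARD, a nuclear receptor for fatty acids, at 0.26, and the median of the list was 0.11, and 0.011 with 12 arrays.

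In the premir comparison the genes of smallest p in the lists were TMEM97, a sterol-responsive membrane protein, at -0.65 ± 0.16 (SE) with an adjusted p of 0.113, HADH, a dehydrogenase of fatty acid oxidation, at 0.42 ± 0.14 (SE) with 0.378, DHDDS, a subunit of the enzyme that makes dolichol chains, at -0.42 ± 0.14 (SE) with 0.361, and MID1IP1, an activator of acetyl-CoA carboxylase, at 0.28 ± 0.15 (SE) with 0.727. MYLIP, the ubiquitin ligase that degrades lipoprotein receptors, had -0.40 ± 0.16 (SE). The array left out went against the difference for TMEM97, at 11.35 above its premir controls of 10.43 to 10.71. It also did so for MID1IP1, at 7.15 below its premir controls of 8.47 to 8.66. HADH read 9.57, DHDDS 6.93 and MYLIP 8.46 on that array, each in the direction of its difference. HADH was also 0.69 ± 0.13 (SE) higher with antimir control than with premir control, with an adjusted p of 0.0505, and that comparison shares the premir control arrays.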

How the data were processed

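Total RNA of 12 samples, extracted with Trizol and labelled with the Illumina TotalPrep kit per the labels, was hybridised to Illumina BeadChips. The deposited table gives for each of 47231 probes a bead signal intensity that the authors did not normalize between arrays. It also gives a detection p-value per probe and array, as deposited. The authors' scaled values are the same intensity multiplied by 1 constant per array, 0.927 to 1.12. The summarising software is not given in the sources used here.

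The values were analysed with limma 3.58.1 in R 4.3.3. Neqc estimated and removed each array's background (offset 16), then brought all 12 to the same quantiles on the log2 scale. Probes detected at p under 0.05 on at least 3 arrays were kept (21195). For each symbol the kept probe with the highest mean was used, giving 17369 features, 11725 with a symbol. Of all probes 30113 have 1 symbol in the platform annotation, 8 several and 17110 none. MSMO1 was also sought under its older name SC4MOL.

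A model with 4 group means, or with group and replicate number for the comparisons of numbers, was fitted to 11 arrays with lmFit and eBayes, two-sided, with Benjamini-Hochberg adjustment over all features. A call is an adjusted p under 0.05. The fits were tested on simulated data. The genes, their roles, the 4 lists around the pathway and the choice to leave out premir miR-10b replicate 2 were made with earlier results of these data known. Values on every array are given for genes called in any comparison and for the 4 with the smallest p and the 4 with the largest difference in each; the others are given by range and count, and each list by counts and at most 3 genes a comparison. Same-numbered arrays deviated together in some pairs and not in others (7 of 15 had a correlation over 0.1, from -0.39 to 0.42), so numbers were not treated as pairs. Alternatives were the 12 arrays, the scaled values, median centring, no background correction, other filters, every probe alone, other variances, a replicate block, fewer groups, and each array left out. Promoter windows came from RefSeq, GRCh38.p14. Seed matches of miR-10b and slides or batches were not analysed here.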

Additional observations from a re-analysis of the deposited data

How the results depend on the processing

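The INSIG2 call in the premir comparison depended on the processing. The count of called genes there was 1, and 0 with all 12 arrays, with the values scaled by the authors, with median centring, without a filter (INSIG2 adjusted p 0.0551), with trended and robust variances (0.0550), with the compared arrays alone (0.107) and with the replicate block (-0.77, 0.0938). It ran from 0 to 1 when single arrays were left out, and the call held in 9 of 22 settings. The block changed no other call among the 32 genes. The median premir difference ran from -0.046 to 0.19 over arrays left out. For the difference between the effects the called genes ran from 0 to 1 and the median from -0.16 to 0.12 over arrays left out, and the median was 0.14 with 12 arrays. The replicate 3 count of 14 was 4 with 12 arrays and ran from 7 to 18 over arrays left out, where the share of all features was not taken. The count of genes with replicate 3 lowest was 2 with the scaled values and 1 with median centring. The median of replicate 2 against 1 was -0.25 with median centring. With 12 arrays the brightest probe of ELOVL6 turned to 0.35 in the premir comparison, 0.32 in the difference between effects and 0.26 in replicate 2 against 1. ELOVL5 turned to 0.065 in the latter with the antimir groups alone. The cause was not tested beyond the arrays used. Of 672 alternative values of single genes 654 kept direction and side of the threshold, 13 lost the call, 1 gained it and 4 turned. Of the 31 results behind these values only INSIG2 in the premir comparison was called in the main fit. All 13 losses were of that call. The other results started uncalled, and many alternatives left out an array outside the compared groups, so the 654 does not measure how robust a call is. Calls among all features ran from 22 to 367 around 124 in the premir comparison, from 0 to 275 around 63 in the difference between effects, from 4 to 112 around 36 between the controls and from 0 to 25 around 0 for replicate 3. No scaling moved the median of all features by over 0.1. SREBF2 lay near the background, and its values are limited by that.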
